A study of Mus musculus with 6 samples.

Results

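The Hox genes of the mouse were described here in brain without its cerebellum, from animals lacking Gb5 (Gb5ko) and from wild-type animals (Gb5wt). The members were all probe sets of the array annotated to exactly 1 gene symbol of the clustered Hox families Hoxa to Hoxd. This gave 33 genes read by 48 probe sets, out of 18193 genes with a probe set of their own and 45037 probe sets tested. Gb5 is the G protein beta subunit encoded by Gnb5. Each group held 3 arrays, Gb5ko replicates 1 to 3 and Gb5wt replicates 4 to 6, each hybridised with total RNA of the non-cerebellar brain. The labels describe littermates matched for age and sex, and the sex-linked transcripts given below were not alike on the 6 arrays. The labels do not state how Gb5 was lost, the strain, or the age and sex of single animals.

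Hox genes encode homeodomain transcription factors that give cells their position along the body axis. They lie in clusters, and genes of matching position in different clusters form a paralog group. In the central nervous system, low-numbered paralog groups are switched on in the hindbrain, middle groups in the caudal medulla and the cervical and thoracic cord, and high-numbered groups in the lumbar and sacral cord. The forebrain and midbrain develop without Hox expression. A Hox transcript in a brain sample is therefore commonly read as a mark of hindbrain or cord tissue, and the amount of brain stem that stays with the forebrain depends on where the dissection is made.

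Nearly all Hox probe sets read low on every array, and none differed detectably between Gb5ko and Gb5wt brains. Of 48 probe sets, 47 had a mean below the dim line, and the exception was the 1 probe set of Hoxa7. The dim line, at 5.83 on the log2 scale, was the median of the mean level of all probe sets tested. In the limma fit over all probe sets, 0 of 48 Hox probe sets passed an adjusted p of 0.05, against a background of 0.0266% of all probe sets, and 0 of 48 had an unadjusted p under 0.05, against 14.4%. Among all probe sets below the line the unadjusted share was 10.4%. With eBayes set to trend and robust, 0 of 48 passed as well.

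The sequences upstream of the Hox genes were set beside these levels. The tables of RefSeq promoters (GRCm38.p6) held 21 start sites for 19 of the 33 genes, and the 250 bases before each start were read on the strand of the gene. The dinucleotide CG, which reads the same on both strands, occurred a median of 13 times in these windows (2 to 35), against a median of 6 (0 to 56) in 32851 windows of all genes. The motif TATAAA, searched on both strands, was found in 2 of the 21 windows, 9.52%, against 12.4% of all windows. Windows of the gene above the dim line, Hoxa7, and of the gene with the smallest p, Hoxd8, are shown because both genes are described below. A relation of these windows to level or difference was not tested. Capitals mark each CG. The Hoxa7 window lies at chr6:52218574-52218823 on the minus strand and holds 7 CG, and the Hoxd8 window lies at chr2:74704365-74704614 on the plus strand and holds 6.
Hoxa7: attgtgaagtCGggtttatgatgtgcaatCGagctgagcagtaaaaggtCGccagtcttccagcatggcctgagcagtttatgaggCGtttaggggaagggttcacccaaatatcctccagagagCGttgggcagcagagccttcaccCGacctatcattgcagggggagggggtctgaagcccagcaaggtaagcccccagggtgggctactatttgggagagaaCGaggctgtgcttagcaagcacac
Hoxd8: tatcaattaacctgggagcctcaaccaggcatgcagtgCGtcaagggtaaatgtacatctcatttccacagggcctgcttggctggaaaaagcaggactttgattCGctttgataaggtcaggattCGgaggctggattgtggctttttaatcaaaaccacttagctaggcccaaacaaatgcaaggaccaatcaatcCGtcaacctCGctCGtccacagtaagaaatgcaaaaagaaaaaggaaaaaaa

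The arrays as a whole were close to one another, with correlations of 0.989 to 0.996 across probe sets and array medians of 5.81 to 5.85. Gnb5 read 3.67, 3.00 and 3.56 in Gb5ko and 8.79, 8.98 and 9.30 in Gb5wt, so the targeted transcript followed the labels. Sex-linked transcripts differed among the arrays of each group, and they do not settle whether the groups were matched by sex. The female transcript Xist was at 10.7, 8.31 and 10.6 on the Gb5ko arrays, against 4.96, 10.8 and 10.7 on the Gb5wt arrays, and Y-linked Eif2s3y was at 2.96, 11.3 and 6.97 on the Gb5ko arrays, against 11.3, 6.05 and 4.05 on the Gb5wt arrays. Gb5wt replicate 4 was thus high for Eif2s3y alone, and Gb5ko replicate 1 and Gb5wt replicate 6 for Xist alone. Gb5ko replicates 2 and 3 and Gb5wt replicate 5 were above the dim line for both. The part of sex in the Hox values was not tested. Gb5ko replicate 2 had the highest Eif2s3y beside a high Xist, and Hox results are also given without it. Without Gb5ko replicate 2, 1 Hox probe set lay above the line, 0 passed, and the median Hox difference was 0.05.

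Hox levels were also set against odorant receptor (Olfr) genes, which act in the nose and were taken as a family nearly silent in brain. The 43 Olfr probe sets with 1 gene had a median mean level of 2.78 and a 95th percentile of 3.73. The 48 Hox probe sets had a median of 3.02 and ran from 2.37 to 5.95. Above the 95th percentile of Olfr lay 10 Hox probe sets, 20.8%, against 75.5% of all probe sets. Above the 99th percentile of Olfr, at 4.17, lay 3 (Hoxa7, Hoxa5 and Hoxd9). Probes differ in affinity and no detection calls were used here, so a low reading does not show that a transcript is absent, and a reading above either line does not show that it is present.

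**Figure D1:**
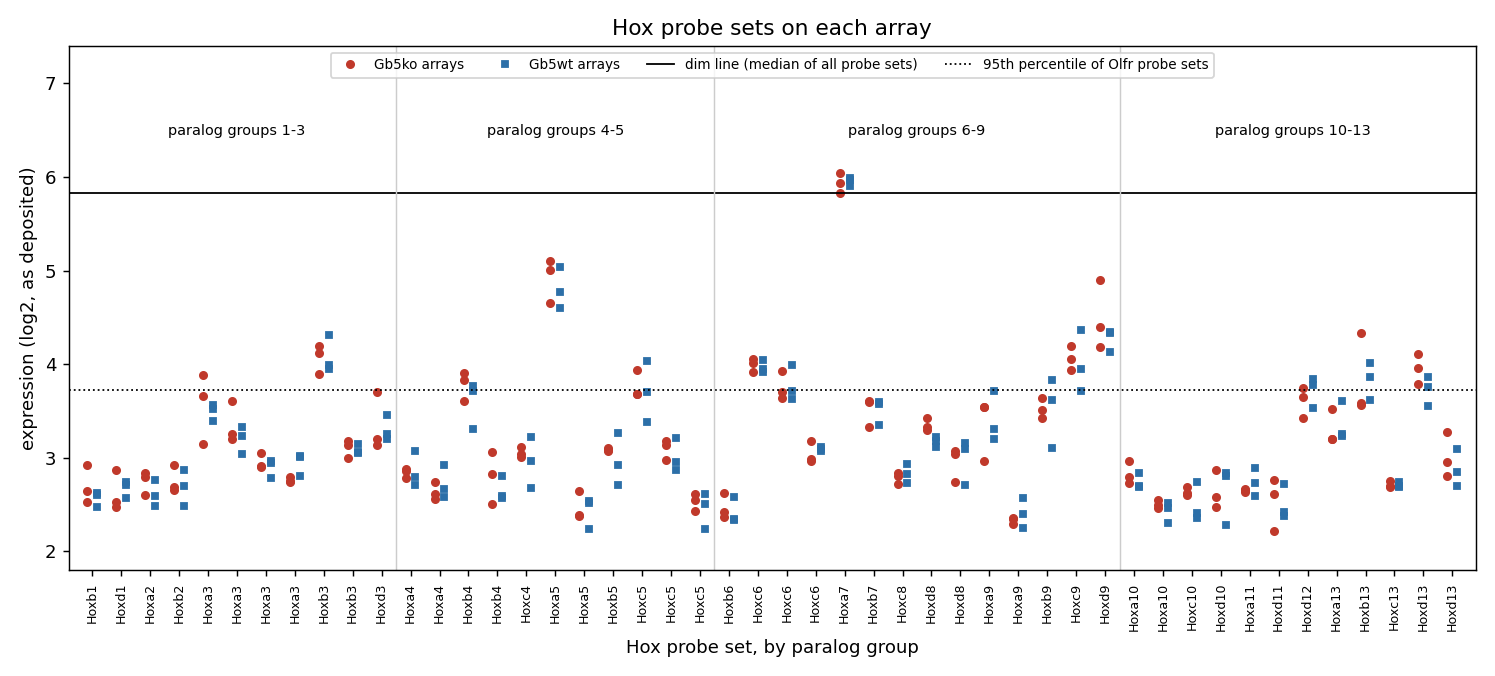
Expression on the log2 scale of each of the 48 Hox probe sets (horizontal axis, ordered by paralog group) on the 3 Gb5ko arrays (circles, left) and the 3 Gb5wt arrays (squares, right). The solid line is the dim line at 5.83 and the dotted line the 95th percentile of Olfr probe sets at 3.73. Only the Hoxa7 probe set lies above the solid line.

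Paralog groups 1 to 3, whose genes pattern the hindbrain segments called rhombomeres, had 11 probe sets of 7 genes. Their means ran from 2.63 to 4.08, with 0 above the dim line and 1 above the 95th percentile of Olfr. Hoxb1, which gives rhombomere 4 its identity, read 2.92, 2.65 and 2.53 in Gb5ko and 2.48, 2.62 and 2.60 in Gb5wt. Hoxa2 and Hoxb2, which act in the anterior rhombomeres, had values of 2.48 to 2.92 over all 6 arrays. The brightest probe set in these groups was 1 of 2 for Hoxb3, a gene of the caudal hindbrain, at 4.20, 3.90 and 4.12 in Gb5ko and 4.32, 3.99 and 3.94 in Gb5wt. Groups overlapped for both Hoxb1 and Hoxb3. Hoxa3 had 4 probe sets with means from 2.85 to 3.53, and their differences ran from -0.18 to 0.15, so their signs disagreed. Hoxd3 and Hoxd1, the members of the Hoxd cluster here, had means of 3.33 and 2.65.

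Paralog groups 4 and 5, which mark the caudal medulla and the upper cervical cord, had 11 probe sets of 6 genes, with 0 above the dim line and 2 above the 95th percentile of Olfr. The brighter of 2 probe sets of Hoxa5, a gene that also patterns the cervical skeleton and the lung, read 4.66, 5.11 and 5.01 in Gb5ko and 4.60, 5.04 and 4.77 in Gb5wt. The other Hoxa5 probe set read 2.38, 2.65 and 2.39 in Gb5ko and 2.53, 2.52 and 2.24 in Gb5wt. The means of these Hoxa5 probe sets, 4.86 and 2.45, were the farthest apart of the 11 Hox genes with several probe sets, and the brighter one carries the x suffix that the array maker gives to probe sets with probes shared by other sequences. The groups overlapped for both. Hoxb4 read 3.91, 3.61 and 3.83 in Gb5ko and 3.72, 3.77 and 3.31 in Gb5wt with its brighter probe set, and a mean of 2.73 with the other. Hoxc4, Hoxa4 and Hoxb5 had means between 2.68 and 3.03, and Hoxc5 between 2.49 and 3.74.

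Paralog groups 6 to 9, genes of the thoracic cord and trunk, had 14 probe sets of 10 genes. One of them, that of Hoxa7, lay above the dim line, and 5 lay above the 95th percentile of Olfr. Hoxa7 read 6.05, 5.94 and 5.83 in Gb5ko and 5.97, 5.99 and 5.91 in Gb5wt. All 6 values were above the line, by little, and the groups overlapped. The difference was -0.02 ± 0.102 (SE, n = 3 and 3; limma adjusted p = 0.957), with a 95% interval of -0.25 to 0.21. Hoxa7 had no other probe set on the array, and its paralog Hoxb7 read 3.61, 3.60 and 3.33 in Gb5ko and 3.59, 3.57 and 3.35 in Gb5wt. Of its neighbours in the Hoxa cluster, Hoxa9 had means of 2.37 and 3.38 and Hoxa5 the means given above, all below the line, and Hoxa6 was not analysed here.

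Hoxd9, a gene of the lower trunk and limb, was the third brightest probe set, at 4.90, 4.40 and 4.19 in Gb5ko and 4.34, 4.13 and 4.34 in Gb5wt. Gb5ko replicate 1 gave its highest value, and the groups overlapped. Hoxc9 read 4.05, 4.20 and 3.94 in Gb5ko and 3.72, 4.36 and 3.95 in Gb5wt. Hoxc6 had 3 probe sets with means of 3.07 to 3.98. Just below the dim line were Hoxa5 (mean 4.86), Hoxd9 (4.38) and Hoxb3 (4.08), and just above it only Hoxa7 (5.95), so a gap of about 1 unit on the log2 scale separated the 1 probe set above the line from the next. Hoxb6, Hoxc8, Hoxd8 and Hoxb9 had means between 2.45 and 3.52.

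Paralog groups 10 to 13, which pattern the lumbar and sacral cord, the limbs and the urogenital tract, had 12 probe sets of 10 genes, with 0 above the dim line and 2 above the 95th percentile of Olfr. Their median mean level, 2.75, compared with 2.93 in groups 1 to 3, 3.00 in groups 4 and 5 and 3.44 in groups 6 to 9. Those medians come from different probe sets and give no order of expression. Hoxb13, a gene of the tail region and prostate, read 4.34, 3.59 and 3.56 in Gb5ko and 3.62, 3.86 and 4.01 in Gb5wt. Hoxd13, a digit gene, read 4.11, 3.78 and 3.96 in Gb5ko and 3.76, 3.56 and 3.87 in Gb5wt with its brighter probe set. Both are genes of the posterior end of the body, and the groups overlapped for both. Hoxa10, Hoxc10, Hoxd10, Hoxa11, Hoxd11 and Hoxc13 had means of 2.47 to 2.79, and Hoxd12 and Hoxa13 of 3.66 and 3.34.

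The comparison of Gb5ko with Gb5wt asked whether Hox levels, as a mark of caudal tissue, differed between the groups. Differences of the 48 probe sets ran from -0.18 to 0.22 on the log2 scale with a median of 0.04, beside a median of 0.03 over all probe sets. Every 95% interval of a Hox probe set included 0, and the intervals together reached from -0.49 to 0.61. Limma adjusted p values ran from 0.421 to 0.999. Differences were positive for 32 of 48 probe sets, 66.7%, against a background of 55.5% of all probe sets and 55.7% of those below the line. The 3 arrays of a group lay wholly on one side of the other group for 2 of 48, 4.17%, against 21.5% of all probe sets and 13.8% of those below the line.

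Those 2 were among the 3 Hox probe sets with the smallest p. One probe set of Hoxd8 read 3.33, 3.30 and 3.43 in Gb5ko and 3.23, 3.18 and 3.11 in Gb5wt, all Gb5ko values above all Gb5wt values. Its difference was 0.18 ± 0.0975 (SE; limma adjusted p = 0.421), and the other Hoxd8 probe set differed by -0.04. One probe set of Hoxa3 read 2.80, 2.75 and 2.74 in Gb5ko and 3.02, 3.01 and 2.80 in Gb5wt, all Gb5ko values lower, with a difference of -0.18 ± 0.103 (SE; limma adjusted p = 0.447). The other 3 Hoxa3 probe sets differed by 0.05 to 0.15. The brighter Hoxd13 probe set, whose groups overlapped, differed by 0.22 ± 0.126 (SE; limma adjusted p = 0.441). None of these passed. The signs of different probe sets disagreed for 4 of the 11 genes with several, Hoxa3, Hoxb3, Hoxc6 and Hoxd8.

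**Figure D2:**
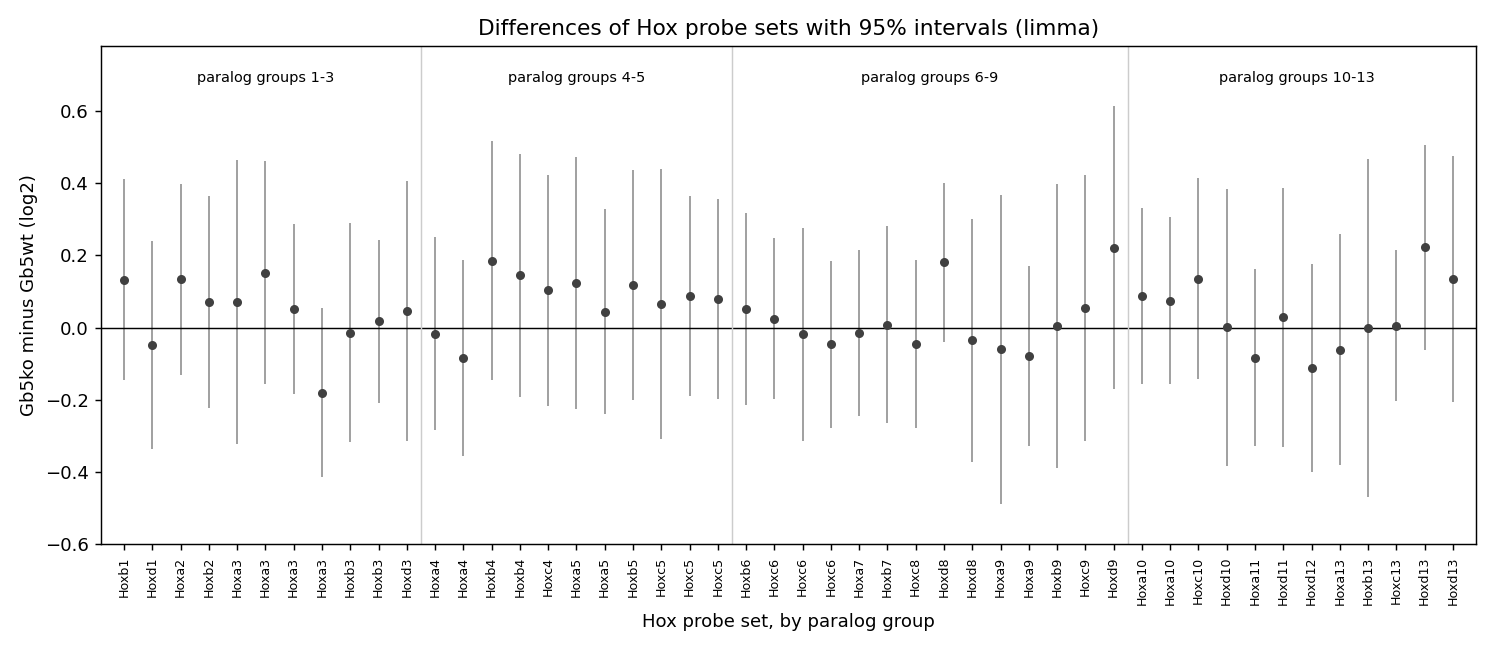
Gb5ko minus Gb5wt difference (log2, vertical axis) of each Hox probe set with its 95% interval from the limma fit, ordered by paralog group. Every interval crosses 0, and the points lie between -0.18 and 0.22.

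By paralog group, the median difference was 0.05 in groups 1 to 3 (8 of 11 positive), 0.09 in groups 4 and 5 (9 of 11), -0.01 in groups 6 to 9 (7 of 14) and 0.02 in groups 10 to 13 (8 of 12). By cluster it was 0.01 for Hoxa, 0.05 for Hoxb, 0.05 for Hoxc and 0.04 for Hoxd. Over all probe sets the median was 0.03, with 55.5% positive, and no Hox group or cluster held a probe set with an unadjusted p under 0.05.

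As a measure of caudal tissue on each array, the deviation of each probe set from its own mean over the 6 arrays was averaged. For Hoxa7, the probe set above the dim line, the deviation was 0.10, -0.01 and -0.12 in Gb5ko and 0.02, 0.04 and -0.04 in Gb5wt. Over all 48 Hox probe sets it was 0.07, -0.01 and 0.0016 in Gb5ko and 0.02, -0.02 and -0.06 in Gb5wt. The 43 Olfr probe sets gave 0.05, 0.00 and -0.04 in Gb5ko and 0.07, -0.03 and -0.05 in Gb5wt, and all 22519 probe sets below the line gave 0.04, -0.01 and 0.00 in Gb5ko and 0.01, -0.02 and -0.02 in Gb5wt. Hox, Olfr and dim probe sets were thus all above their means on Gb5ko replicate 1 and Gb5wt replicate 4, and all below them on Gb5wt replicates 5 and 6. The part of this shift of dim probe sets in the Hox values was not tested. Gb5ko replicate 1 held the highest value of 18 of 48 Hox probe sets, 37.5%, against 27.7% of all probe sets below the line, and Gb5wt replicate 4 of 13, 27.1%, against 21.4%. Without Gb5ko replicate 1 the median Hox difference was 0.01.

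**Figure D3:**
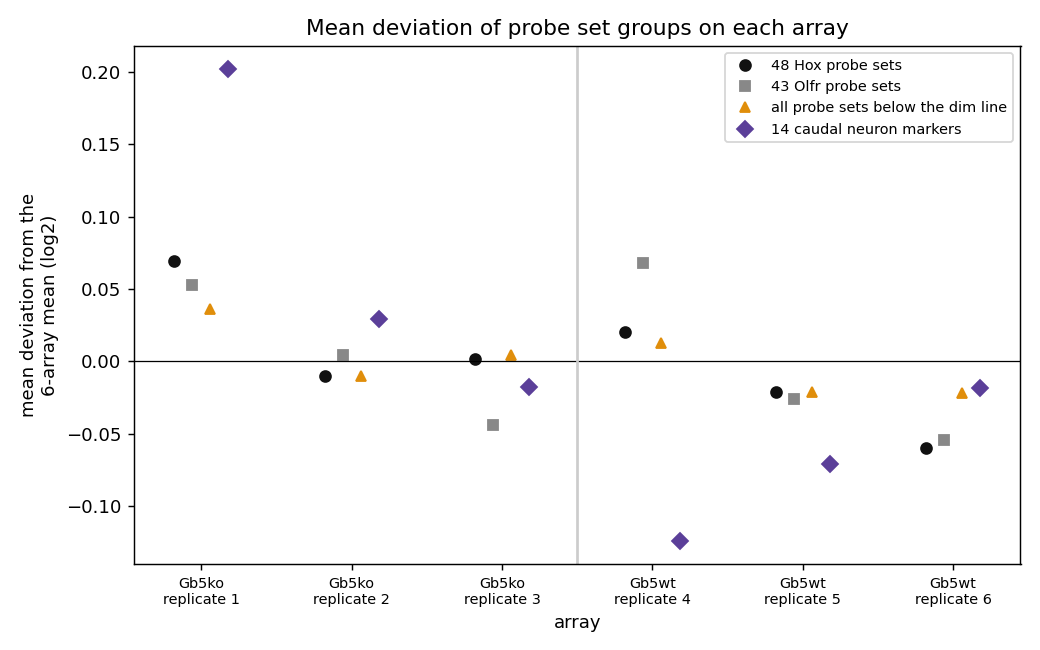
Mean deviation (log2) of 4 sets of probe sets from their own 6-array means on each array, Gb5ko arrays on the left and Gb5wt arrays on the right. The Hox points lie between -0.06 and 0.07, and the caudal neuron markers reach 0.20 on Gb5ko replicate 1.

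Markers of neurons of the caudal brain stem and spinal cord were read for the same purpose, each by its brightest probe set. Of 17 listed genes 14 were measured, and 5 lay above the dim line. These 5 were the motor neuron factor Isl1, the metallopeptidase Ecel1, the intermediate filament Prph, the synuclein Sncg and the sensory neuron factor Pou4f1, and each is also expressed elsewhere, among them Isl1 in the striatum and Pou4f1 in the habenula. Prph, typical of motor and sensory neurons with peripheral axons, read 6.97, 6.75 and 6.95 in Gb5ko and 6.48, 6.73 and 6.72 in Gb5wt, and Ecel1 read 7.42, 6.95 and 6.86 in Gb5ko and 6.78, 6.71 and 6.84 in Gb5wt. All Gb5ko values exceeded all Gb5wt values in both, against 21.5% of all probe sets whose groups did not overlap in either direction. Neither passed, with limma adjusted p values of 0.369 and 0.387.

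Markers more restricted to caudal levels were below the dim line. Slc6a5, the glycine transporter of inhibitory neurons in the brain stem and cord, read 3.36, 3.41 and 3.66 in Gb5ko and 3.36, 3.54 and 3.66 in Gb5wt. Glra1, the adult glycine receptor subunit of the same regions, read 4.94, 4.10 and 4.40 in Gb5ko and 4.04, 4.04 and 4.92 in Gb5wt. The mean of that Glra1 probe set, 4.41, was above the 99th percentile of Olfr, and its other probe set had a mean of 2.77. Phox2a, a factor of noradrenergic and cranial motor neurons, read 3.04, 3.02 and 3.09 in Gb5ko and 2.78, 2.83 and 2.86 in Gb5wt. The groups overlapped for Slc6a5 and Glra1 and not for Phox2a, against 13.8% without overlap among all probe sets below the line. Chat, the acetylcholine synthesis enzyme of motor neurons and also of forebrain neurons, was also below the line. It had values of 3.05 to 3.27 over the 6 arrays from its 1 probe set. The caudal markers had 11 of 14 positive differences, against 55.5% of all probe sets, and a median of 0.17. The median was 0.06 without Gb5ko replicate 1 and 0.24 without Gb5ko replicate 2. Unadjusted, 2 of 14 had a limma p under 0.05, and both were higher in Gb5ko (Uts2 by 0.31 and Phox2a by 0.22). In either direction, the share at that p was 14.4% of all probe sets and 10.4% of those below the line. Both genes were below the line, Uts2 with a mean of 3.51, and 0 of 14 passed the adjusted threshold.

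Monoamine neurons of the pons and raphe, which lie rostral to most Hox territory, were read in 4 of 5 listed genes. Tph2, the serotonin synthesis enzyme of raphe neurons, was the 1 above the dim line, at 6.00, 6.27 and 6.55 in Gb5ko and 6.30, 6.17 and 6.15 in Gb5wt. The serotonin transporter Slc6a4 read 5.26, 5.10 and 5.13 in Gb5ko and 5.06, 4.97 and 4.72 in Gb5wt. The noradrenergic genes Dbh and Slc6a2 had values of 3.95 to 5.07. Groups overlapped for all of these but Slc6a4, against 13.8% without overlap among all probe sets below the line. Of the 4 genes, 0 passed (smallest limma adjusted p = 0.371).

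**Figure D4:**
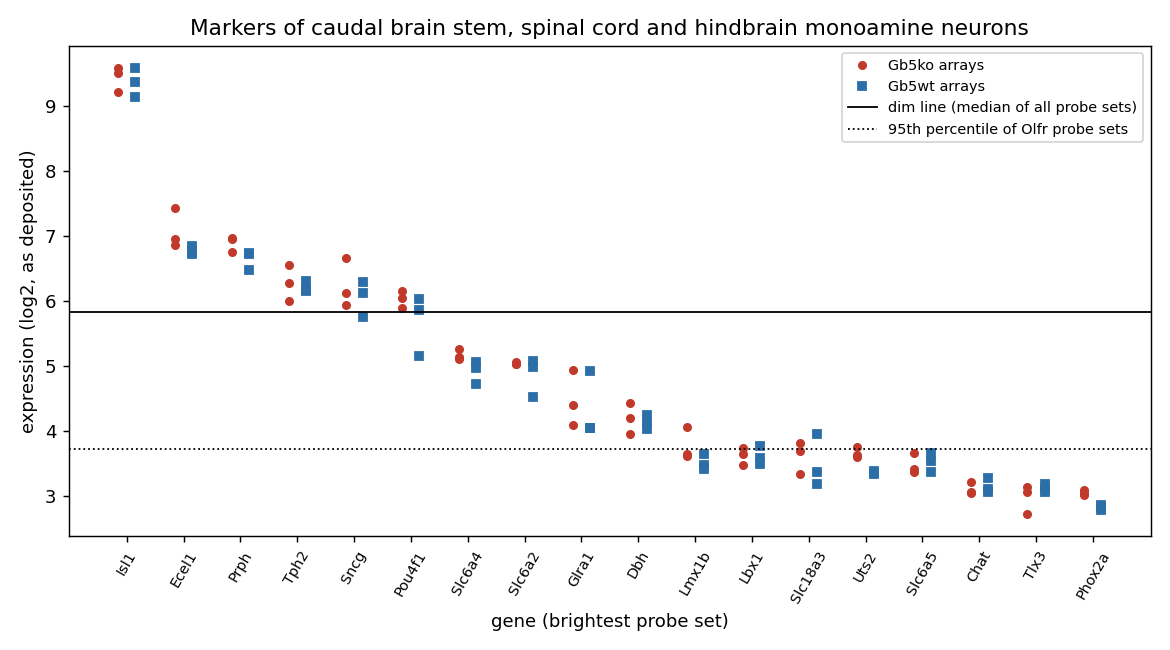
Expression on the log2 scale of 18 markers of caudal brain stem, spinal cord and hindbrain monoamine neurons, each by its brightest probe set, on Gb5ko arrays (circles, left) and Gb5wt arrays (squares, right). Isl1, Ecel1, Prph, Tph2, Sncg and Pou4f1 have means above the dim line at 5.83. Lmx1b, Lbx1, Slc18a3, Uts2, Slc6a5, Chat, Tlx3 and Phox2a have means below the 95th percentile of the Olfr probe sets.

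Genes that work with or upstream of Hox factors were well above the line in many cases. Of 8 measured Hox cofactors of the Pbx, Meis and Pknox families, which bind DNA together with Hox proteins, 7 lay above it. Meis2 read 10.7, 11.0 and 10.9 in Gb5ko and 10.9, 10.9 and 10.7 in Gb5wt, and the cofactor with the smallest p, Meis3, differed by 0.24 (limma adjusted p = 0.445). Of 16 measured Polycomb and trithorax genes, which keep Hox clusters silent or active, 13 lay above the line and 2 had an unadjusted p under 0.05, against 14.4% of all probe sets, the Polycomb gene Phc1 with a difference of 0.29 and the trithorax gene Kmt2a with 0.27. Medians of these lists were 0.01 and 0.03, and 0 genes passed. Kmt2a lies on chromosome 9, as do Gnb5 and the cofactor Pknox2, which differed by 0.06. The part of this position in the differences was not tested.

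Retinoic acid, made by Aldh1a enzymes and cleared by Cyp26 enzymes, is the signal that opens the Hox clusters in the embryo. Of 19 measured genes of this pathway and the Cdx family, 13 lay above the line, and 3 had an unadjusted p under 0.05, against 14.4% of all probe sets, 1 with a positive and 2 with a negative difference. Crabp1, which binds retinoic acid in the cytoplasm, read 9.63, 9.22 and 8.89 in Gb5ko and 8.66, 8.89 and 8.69 in Gb5wt, a difference of 0.50 ± 0.176 (SE; limma adjusted p = 0.272). The synthesis enzyme Aldh1a2 read 5.70, 5.77 and 5.91 in Gb5ko and 6.18, 6.15 and 6.15 in Gb5wt, a difference of -0.37 ± 0.1 (SE; limma adjusted p = 0.222), and Rdh10, which makes retinaldehyde, differed by -0.26. None of them passed. Their groups did not overlap, as for 21.5% of all probe sets. For Crabp1 this was nearly a tie, with 8.8887 on Gb5ko replicate 3 and 8.8878 on Gb5wt replicate 5. Crabp1 and Aldh1a2 lie on chromosome 9, as does Gnb5. Stra6 of the same list lies there too and differed by -0.05. The part of this position in the differences was not tested. The Cdx genes, direct activators of trunk Hox genes, had values of 2.28 to 3.92.

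The hindbrain segmentation regulators (5 of 7 measured) had a median of 0.25, or 0.01 without Gb5ko replicate 1, and 0 of 5 had an unadjusted p under 0.05. The one with the smallest p, Egr2, a rhombomere gene that adult neurons also switch on with activity, differed by 0.37 (limma adjusted p = 0.393). Of 15 measured neighbours of the clusters, 9 lay above the line and 2 had an unadjusted p under 0.05, against 14.4% of all probe sets, Copz1 with a difference of 0.31 and Skap1 with 0.42. The homeobox genes Evx1 and Evx2, which end their clusters, had values of 3.18 to 4.16.

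Other regions and tissues that can enter the dissection were read by their own markers. Forebrain factors, with 8 of 10 above the line, had a mean level of 7.02 to 7.19 in Gb5ko and 7.02 to 7.18 in Gb5wt, and a median difference of 0.03, or -0.05 without Gb5ko replicate 1. Midbrain and isthmus factors had a mean level of 4.22 to 4.31 in Gb5ko and 4.20 to 4.27 in Gb5wt. The 1 of 9 above the line was Nr4a2 (mean 10.9), and the isthmus genes En1 and En2 were below it. Cerebellar markers, 8 of 11 above the line, had a mean level of 7.95 to 8.17 in Gb5ko and 7.94 to 7.97 in Gb5wt. Those below the line were Gabra6, Fat2 and Cbln3, with means of 3.33, 4.01 and 4.32. Whether the signal of those above it came from cerebellar tissue was not tested. The mean deviation of the cerebellar markers was highest on Gb5ko replicate 1, at 0.17. Hox probe sets and caudal neuron markers were also highest on that array, as were forebrain factors (0.08) and all probe sets below the line (0.04). Midbrain and isthmus factors were highest on Gb5ko replicate 2 (0.06) and Olfr probe sets on Gb5wt replicate 4 (0.07). Pituitary markers, 2 of 6 above the line, had a mean level of 4.54 to 7.46 in Gb5ko and 4.43 to 5.35 in Gb5wt, with the highest value on Gb5ko replicate 3, where the mean Hox deviation was 0.0016. An unadjusted limma p under 0.05 was found for 1 of 10 forebrain (Tbr1, -0.28), 1 of 11 cerebellar (Zic1, -0.31) and 1 of 6 pituitary genes (Lhb, 0.52). Of 9 midbrain and isthmus genes, 1 was higher at that p (Pitx3, 0.39) and 1 lower (Pax7, -0.54). The share of all probe sets was 14.4%, and none of these genes passed the adjusted threshold. The part of these tissues in the Hox values was not tested.

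Markers of other cells that a brain dissection can hold, of the ventricles, the coverings, the blood, the vessels, the white matter and attached muscle, were also read. Median differences were -0.09 for choroid plexus, -0.11 for blood, -0.14 for endothelial and mural cells, -0.25 for meningeal fibroblasts, 0.17 for skeletal muscle and -0.22 for myelin. Over all 17 lists, 0 of 158 measured genes passed the limma adjusted threshold. In the 6 lists of this paragraph 9 of 41 genes had an unadjusted p under 0.05, against 14.4% of all probe sets, 2 with a positive and 7 with a negative difference. The positive ones were S100a9 of neutrophils (0.91) and Myh1 of muscle (0.29). The negative ones were Cldn11 of myelin (-0.59), Rgs5 and Cdh5 of vessels (-0.43 and -0.27), Col3a1, Igf2 and Col1a2 of the meninges (-0.37, -0.34 and -0.33) and Kl of the choroid plexus (-0.35). In bulk tissue, fewer cells of a type and less RNA per cell cannot be told apart.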

How the data were processed

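Biotin-labelled RNA of 6 samples was hybridised to Affymetrix arrays, 1 per sample, per the labels' protocols. Values were used as the authors deposited them, on a log2 scale. RMA and Partek are named, with no version, per the submitters' processing notes. Changes near background are compressed by RMA. The table held 45101 probe sets, of which 64 control probe sets were left out. Symbols came from the platform annotation and were placed by Entrez identifier in RefSeq's GRCm38.p6 table (48 of 48 Hox probe sets).

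The test was limma's moderated test (limma 3.58.1, R 4.3.3), two-sided and Benjamini-Hochberg adjusted over 45037 probe sets, 4 residual and 5.05 prior degrees of freedom. The dim line was to be the 95th percentile of Olfr probe sets if at least 50 existed. With 43, the rule gave the median of all probe sets. The number of arrays limits the precision. No label ties each array to 1 animal, so p-values measure the spread between these samples, which may be technical.

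All Hox genes were named by rule, those above the line in full with the 3 smallest p and those beside the line. Up to 4 genes of each list with the smallest p could be named. Other Hox values and list genes were chosen after their values were seen. Members and lists were chosen with earlier results of these data known. Figures were drawn with matplotlib 3.10.9.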

Additional observations from a re-analysis of the deposited data

Results flagged for a closer look

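Probe sets annotated to Hox loci that are not members, because they carry 2 symbols or an antisense symbol, numbered 8. All had means below the dim line. Among these 8, 3 had groups that did not overlap, against 21.5% of all probe sets and 13.8% of those below the line. In 2 of them all Gb5ko values were above all Gb5wt values, which is why these are given here. In the other, annotated to a different pair of Hox genes, all Gb5ko values were below all Gb5wt values, with a difference of -0.16 (limma adjusted p = 0.488). Of the 2 that read higher, one, annotated to 2 Hox genes and so named for neither, read 3.79, 3.67 and 3.61 in Gb5ko and 2.97, 3.28 and 3.12 in Gb5wt. Its difference of 0.56 ± 0.114 (SE) did not pass (limma adjusted p = 0.187, unadjusted p = 0.000797). A second probe set annotated to the same 2 genes differed by 0.00 (95% interval -0.33 to 0.33). The other was 1 of 2 probe sets of the antisense transcript Hoxa11os, which read 2.92, 2.58 and 2.42 in Gb5ko and 2.29, 2.40 and 2.22 in Gb5wt, a difference of 0.34 ± 0.138 (SE; limma adjusted p = 0.32). The second Hoxa11os probe set differed by -0.05.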

How the results depend on the processing

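No paired analysis was possible because Gb5ko is numbered 1 to 3 and Gb5wt 4 to 6. The count of 0 Hox probe sets past the limma threshold stayed at 0 under all 13 alternatives, which were quantile normalization, median centring, array weights, eBayes with trend and robust set, a single probe set for each gene, testing only above the dim line, an adjusted p under 0.1 and leaving out each array, with smallest adjusted p values from 0.332 to 0.931. Testing only above the dim line covered Hoxa7 alone, at 0.931, and says nothing of the other Hox probe sets. With each array left out, 1 Hox probe set stayed above the line, the difference of Hoxa7 ran from -0.07 to 0.04 and the median over all 48 from 0.01 to 0.07. The number above the line depended on the line. It was 17 with the 90th percentile of the Olfr probe sets, 10 with the 95th and 3 with the 99th, and these lines are lower. With the 99th, the median difference of the 3 probe sets above it was 0.12, and the mean deviation was -0.094 on Gb5wt replicate 4 and -0.010 on Gb5wt replicate 5. With all 48 probe sets in place of Hoxa7 the deviation was 0.0016 on Gb5ko replicate 3 and -0.021 on Gb5wt replicate 5. Those settings use other probe sets. The 44 values of 4 named Hox probe sets under alternatives all stayed short of the threshold. The lines at the 95th percentile, the readings over all 48 and the lists without 1 array were chosen after the data were seen. Signal near background limits all of these results.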
